A study of Mus musculus with 6 samples.

Results

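The nuclear genes of respiratory complex I were examined as a set of 36 listed mouse genes, among 45679 genes with a symbol in the deposited gene tables of mouse ovary. The members were taken by name, as the table rows that carry the NCBI Gene ID of a listed gene. No measured value was part of that rule, but the list was chosen with earlier results of these data known. All 36 were found in all 6 libraries, and all 36 were among the 16473 genes tested. Complex I is the entry enzyme of the respiratory chain: it takes electrons from NADH, passes them along iron-sulphur clusters to ubiquinone, and pumps protons across the inner mitochondrial membrane. Its matrix arm binds NADH at the tip and ubiquinone near the base, and its membrane arm holds the proton pumps, whose core subunits are encoded by mitochondrial DNA. The core subunits of the matrix arm and all accessory subunits are encoded in the nucleus. Steroid-producing luteal cells are rich in mitochondria, but the enzyme was not measured here in any cell type.

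The data are mRNA sequencing of whole ovaries of wild-type BDF1 mice, a hybrid laboratory strain, in 3 groups of 2 libraries. The groups are 65-week-old mice given MIT-001, a compound that neutralises reactive oxygen species in mitochondria, 65-week-old mice given PBS, and 8-week-old mice given PBS. Injections into the abdomen ran for 7 days, with MIT-001 at 0.5 mg/kg, in a study of 40 old and 20 young mice. The labels do not say how many animals gave a library, so p-values measure only the spread between these libraries, which may be technical.

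The deposited values were TPM, an abundance scaled for transcript length and library. Coverage divided by FPKM put the aligned sequence at 6.34 to 7.14 gigabases in each library, and 14317 to 16304 genes per library reached a TPM of 1. Cell type markers went against the age labels, with oocyte genes highest in old PBS and macrophage genes highest in young PBS. The 8 oocyte markers summed to 79.1 and 40.8 TPM in the libraries labelled old MIT-001 and to 426 and 460 TPM in those labelled old PBS, against 289 and 33.9 TPM in those labelled young PBS. The 8 markers of macrophages, which are known to collect in the ageing ovary, summed to 1104 and 888 TPM in old MIT-001, to 287 and 404 TPM in old PBS and to 1894 and 2231 TPM in young PBS libraries. Groups are therefore named here as labelled. The 2 libraries labelled young PBS also stood apart from each other: 20 ribosomal protein genes summed to 57933 and 22382 TPM, 9 luteal genes to 23105 and 66240 TPM, and the median difference of a gene between the 2 libraries of a group was 0.24 in old MIT-001, 0.23 in old PBS and 0.52 in young PBS on the log2 scale. In whole tissue, fewer cells of a type and less RNA per cell cannot be told apart.

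Complex I transcripts were abundant in every library, and the order of the genes was much the same in all of them. The 36 genes together took 6740 and 6603 TPM in the old MIT-001 libraries, 7517 and 6715 TPM in the old PBS libraries, and 8350 and 7194 TPM in the young PBS libraries. As means these are 6671 ± 96.9, 7116 ± 568 and 7772 ± 817 TPM (SD, n = 2 each). The old PBS values overlapped with those of both other groups, and both old MIT-001 values lay below the lowest young PBS value, though an exact permutation test of 2 libraries against 2 cannot give a p below 0.333. Ranking the 36 genes by TPM gave Spearman coefficients of 0.81 to 0.98 between pairs of libraries, as a description over genes that share the same libraries. The lowest of these coefficients all involved young PBS replicate 2 (0.81 to 0.86).

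Ndufa4, first described with complex I and since assigned to cytochrome c oxidase, had the highest TPM, with 611 and 553 in old MIT-001, 526 and 485 in old PBS, and 652 and 415 in young PBS libraries. Next were Ndufa6, a small LYR-motif subunit that binds the acyl carrier protein in the matrix arm, and Ndufb9, the LYR-motif subunit of the membrane arm, with means over the 6 libraries of 365 and 330 TPM. Ndufs1, the largest iron-sulphur subunit, was among the lowest, with a mean of 94.7 TPM, together with Ndufb2 at 82.9 TPM, a single-span subunit of the distal membrane arm. The lowest was Ndufa11, a membrane subunit at the base of the arm, with 42.7 and 49.9 TPM in old MIT-001, 40.9 and 39.2 TPM in old PBS, and 47.7 and 52.9 TPM in young PBS libraries. Means over the 6 libraries thus spanned 45.5 to 540 TPM among the members. The range of each gene across libraries was much smaller, at 1.13-fold for Ndufa8 to 2.62-fold for Ndufs4 between the lowest and the highest library.

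**Figure D1:**
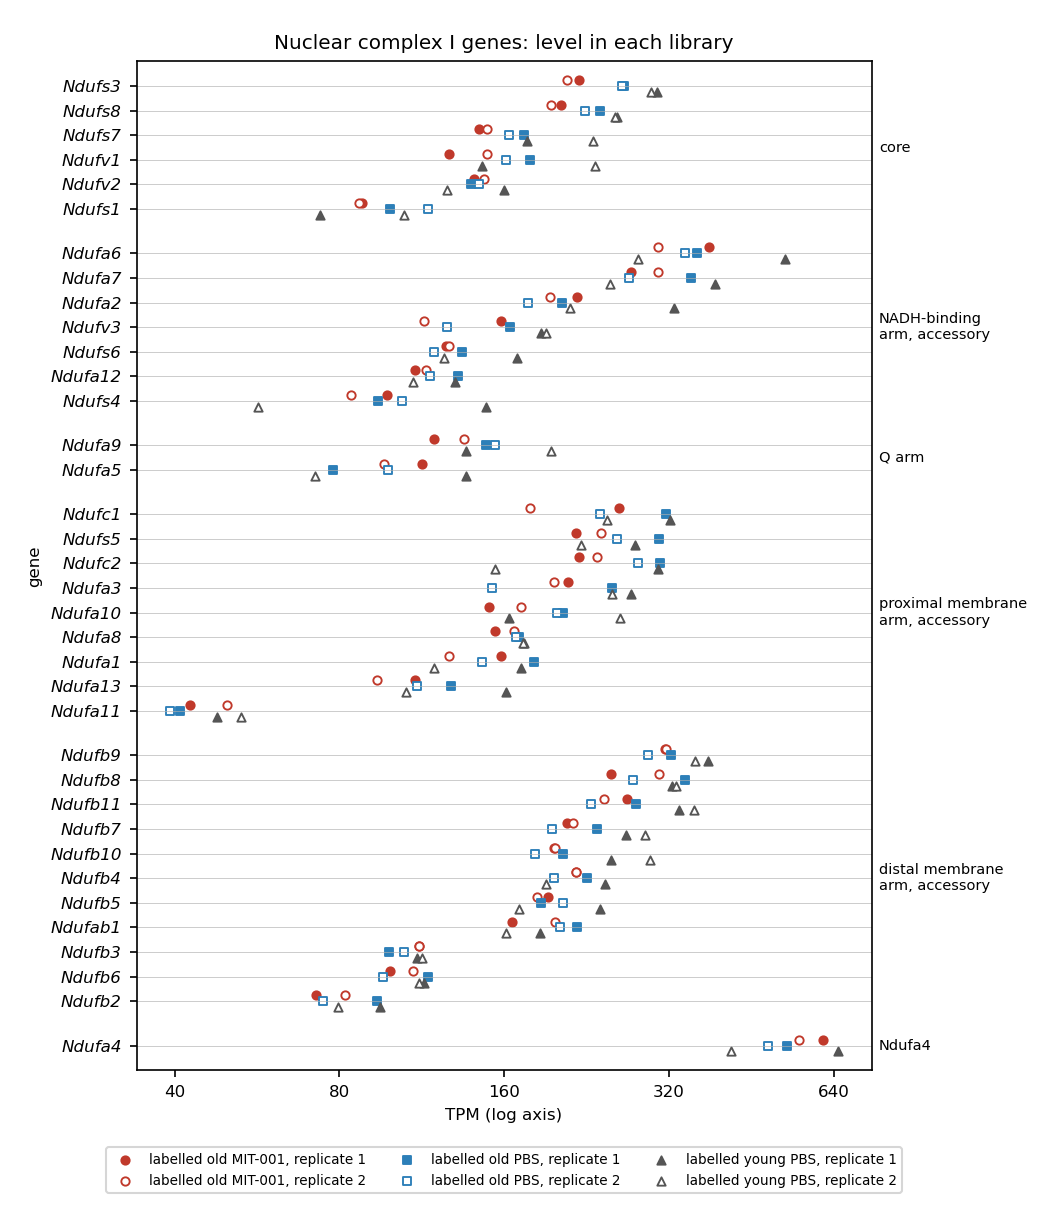
TPM (log axis) of each of the 36 genes in each library, grouped by place in the enzyme, with circles for libraries labelled old MIT-001, squares for old PBS and triangles for young PBS, filled for replicate 1 and open for replicate 2. Genes differ in level by more than libraries do, and the 2 young PBS triangles are often the farthest apart, as for Ndufs4 (148 and 56.7 TPM).

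The promoters of the members were read from RefSeq, in build GRCm38.p6, as windows of 250 bases before to 50 bases after each annotated start. A window was present for 33 of the 36 genes, and Ndufs1, Ndufa2 and Ndufb9 had no entry. Each window was searched on both strands for GCATGCGC, the core of the site of NRF1, for CCGGAAG, a site of ETS factors such as GABP, and for AAGATGGC, a site of YY1, all known regulators of respiratory genes. AAGATGGC stood in 7 of the 33 genes (21.2%), against 4.69% of tested genes and 3.19% of all genes with a promoter in the table. In all 7 (Ndufc1, Ndufa9, Ndufa3, Ndufs7, Ndufs6, Ndufs4 and Ndufb8) it lay on the strand of the gene, beginning 22 to 38 bases after the start, and in all 7 its ATG was an annotated start codon in GENCODE M21. Of the tested genes with the motif on the strand of the gene, 43.4% (165 of 380) had their start codon there. GCATGCGC stood in 3 members (9.09%, against 5.3% of tested genes and 3.05% of all), and CCGGAAG in 4 (12.1%, against 18.1% and 9.93%). The 38 listed genes of complexes II to V, of which 30 had a window, held GCATGCGC in 23.3%, CCGGAAG in 40% and AAGATGGC in 10% of genes. No member held motifs of more than 1 kind, and the only overlap was that of GCATGCGC with itself on both strands in Ndufa11. The windows of 4 genes are shown, for the genes that carry the smallest p among the core subunits (Ndufs3), a core subunit and the most variable member with AAGATGGC (Ndufs7 and Ndufs4), and the lowest member (Ndufa11), with motif matches in capitals. A match is a description of these letters and not a site.
Ndufs3, chr2:90904672-90904971, minus strand: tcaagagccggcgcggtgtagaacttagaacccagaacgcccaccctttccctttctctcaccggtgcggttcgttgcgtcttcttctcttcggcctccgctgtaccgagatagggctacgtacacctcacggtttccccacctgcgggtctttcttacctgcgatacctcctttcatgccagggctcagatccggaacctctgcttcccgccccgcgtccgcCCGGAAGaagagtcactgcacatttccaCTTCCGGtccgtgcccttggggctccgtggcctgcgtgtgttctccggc
Ndufs7, chr10:80249199-80249498, plus strand: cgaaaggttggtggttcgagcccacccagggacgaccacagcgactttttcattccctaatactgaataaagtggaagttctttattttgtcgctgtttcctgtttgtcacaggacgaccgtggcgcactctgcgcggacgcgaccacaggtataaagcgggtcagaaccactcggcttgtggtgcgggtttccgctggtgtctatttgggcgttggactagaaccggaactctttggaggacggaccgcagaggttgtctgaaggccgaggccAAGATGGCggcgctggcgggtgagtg
Ndufs4, chr13:114388045-114388344, minus strand: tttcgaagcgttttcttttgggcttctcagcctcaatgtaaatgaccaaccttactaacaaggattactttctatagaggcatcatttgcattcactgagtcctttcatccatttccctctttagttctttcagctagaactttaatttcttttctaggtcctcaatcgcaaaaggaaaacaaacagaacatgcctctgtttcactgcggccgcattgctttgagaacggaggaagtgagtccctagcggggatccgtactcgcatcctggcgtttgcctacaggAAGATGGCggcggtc
Ndufa11, chr17:56717512-56717811, plus strand: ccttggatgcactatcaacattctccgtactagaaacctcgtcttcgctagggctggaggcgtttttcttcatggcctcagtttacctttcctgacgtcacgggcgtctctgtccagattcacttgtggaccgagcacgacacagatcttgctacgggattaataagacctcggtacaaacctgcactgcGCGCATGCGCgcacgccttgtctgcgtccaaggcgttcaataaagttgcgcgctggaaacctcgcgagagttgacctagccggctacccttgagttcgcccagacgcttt

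No member passed the test in any comparison, and the members' median differences were small beside the 95% intervals of single members. The test was limma on log2(TPM + 1) over all genes and all 6 libraries, with Benjamini-Hochberg adjustment and a threshold of 0.05. The 95% interval of a member's log2 fold change reached 0.55 to either side in the median and 1.06 at most. All interval bounds lay between -1.20 and 1.27. Limma draws the spread of a gene in part from other genes. For Ndufs3 and Ndufs8 the SD within groups was 0.03 and 0.04 (log2), against a SE of 0.19 for each. Differences inside these intervals are not excluded, and a p that misses the threshold does not show that the groups were alike.

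Some members had groups in a fixed order, the core subunits of the ubiquinone-binding part among them. In 4 members, Ndufs3, Ndufs7, Ndufs8 and Ndufa8, both old MIT-001 libraries lay below both old PBS libraries and these below both young PBS libraries, where 0.419% of all genes tested had that order (69 of 16473). Ndufs3, Ndufs7 and Ndufs8 kept the order with FPKM, median centring, quantile normalization and TPM rescaled without the mitochondrial genome, under which 0.389% to 4.55% of all genes had it. The order was looked for after the values were seen, and it carries no test. In 11 members all 3 groups overlapped, and no member was highest in an old MIT-001 library, while 18 were highest in young PBS replicate 1 and 10 in young PBS replicate 2. The shares of all genes with these patterns were not computed, so these counts only describe the members and do not set them apart from other genes.

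Old MIT-001 against old PBS addresses what the compound did in aged ovaries. Of the 36 members, 0 were called, where 0.0182% of all genes tested were (3 of 16473), and 0 reached an unadjusted p below 0.05, where 7.45% of all genes did so as higher and 4.36% as lower. By sign, 11 members were higher and 25 lower in the old MIT-001 libraries, with a median log2 fold change of -0.10 and a range of -0.37 to 0.25. Over all genes tested, 53.5% were higher and the median was 0.03. In 13 members (36.1%) both old MIT-001 libraries lay below both old PBS libraries, and in 3 they lay above, where 24.2% and 27.2% of all genes did. The smallest adjusted p among members was 0.639. Without old PBS replicate 1 the 36 members divided into 18 higher and 18 lower, with a median of 0.00, and without old PBS replicate 2 into 7 and 29, with a median of -0.20.

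A total of 5 of the 6 core subunits of the list were lower with MIT-001 without overlap (83.3%), against 55.3% of the 38 listed genes of complexes II to V and 24.2% of all genes tested. Ndufs3, a core subunit of the ubiquinone-binding part of the matrix arm, had 219 and 208 TPM in the libraries labelled old MIT-001 and 265 and 263 TPM in those labelled old PBS, with 304 and 297 TPM in young PBS. The 3 groups did not overlap, and the 2 libraries of each group lay close together. Its log2 fold change with MIT-001 was -0.30 ± 0.19 (SE, limma, Benjamini-Hochberg adjusted p = 0.639). Ndufs8, which holds iron-sulphur clusters that lead to ubiquinone, had the same order, with 203 and 195 TPM in old MIT-001, 239 and 225 TPM in old PBS, and 257 and 255 TPM in young PBS libraries. Ndufs7, which carries the last cluster before ubiquinone, had 144 and 149 TPM in old MIT-001, 174 and 163 TPM in old PBS, and 176 and 232 TPM in young PBS. Here too the groups did not overlap, but the 2 young PBS libraries were far apart.

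The core subunits at the tip of the matrix arm did not have this order. Ndufv1, which binds NADH and the flavin, had 127 and 149 TPM in old MIT-001 against 178 and 161 TPM in old PBS, with 146 and 234 TPM in young PBS. Ndufs1 had 88.1 and 86.8 TPM in old MIT-001, 98.8 and 116 TPM in old PBS, and 73.6 and 105 TPM in young PBS. For both genes old MIT-001 lay below old PBS, and young PBS overlapped with both. Ndufv2, the partner of Ndufv1 with a single iron-sulphur cluster, had 141 and 147 TPM in old MIT-001, 139 and 144 TPM in old PBS, and 160 and 126 TPM in young PBS, and all 3 groups overlapped. The median log2 fold change of the 6 core genes with MIT-001 was -0.26, and it lay between -0.35 and -0.20 under the other scalings and with any 1 library left out.

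Among accessory subunits, most of those of the proximal membrane arm were lower with MIT-001, and those of the distal arm were divided, though not with median centring. The 9 genes of the proximal arm had a median log2 fold change of -0.23, with 7 lower and 2 higher. This median was -0.11 without old MIT-001 replicate 2, -0.12 without old PBS replicate 1 and -0.35 without old PBS replicate 2. Ndufc2, a subunit embedded at the foot of the membrane arm, had 219 and 236 TPM in old MIT-001, 308 and 281 TPM in old PBS, and 306 and 154 TPM in young PBS. Ndufa10, a matrix-side subunit related to nucleoside kinases, had 150 and 172 TPM in old MIT-001, 205 and 200 TPM in old PBS, and 163 and 261 TPM in young PBS. Both were lower with MIT-001 without overlap, with log2 fold changes of -0.37 ± 0.34 and -0.33 ± 0.27 (SE), and in both the young PBS libraries overlapped with the other groups. Ndufs5, a disulphide-bonded subunit on the intermembrane side, had 216 and 240 TPM in old MIT-001, 307 and 257 TPM in old PBS, and 277 and 221 TPM in young PBS. Ndufa11 went the other way within this arm, with a log2 fold change of 0.20 ± 0.20 (SE) and no overlap, and Ndufa3 overlapped at 209 and 197 TPM in old MIT-001 against 252 and 152 TPM in old PBS.

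The 11 genes of the distal arm had a median log2 fold change of -0.02, with 5 higher and 6 lower, and with median centring of -0.12, with 1 higher and 10 lower. Ndufb3, a small membrane subunit, had 112 and 112 TPM in old MIT-001, 98.5 and 105 TPM in old PBS, and 111 and 113 TPM in young PBS, and was higher with MIT-001 by 0.14 ± 0.18 (SE, log2) without overlap. Ndufab1, the mitochondrial acyl carrier protein, also serves fatty acid synthesis. It was counted with the distal arm, although Ndufa6 binds it in the matrix arm, and had the lowest log2 fold change of the 11, -0.21. Ndufab1 had 165 and 198 TPM in old MIT-001, 217 and 202 TPM in old PBS, and 186 and 161 TPM in young PBS. It was highest in old PBS, above both other groups without overlap. The 7 accessory genes at the NADH end had a median of -0.09 with 1 higher, and the 2 of the ubiquinone part differed in sign, Ndufa5 at 0.25 and Ndufa9 at -0.25 on the log2 scale. Ndufa4, with the values given above, was higher with MIT-001 by 0.20 ± 0.29 (SE, log2), again without overlap. The medians of the NADH-end and distal groups changed sign without old PBS replicate 1, at 0.08 and 0.11, and that of the distal group was 0.03 under quantile normalization.

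In several of the remaining accessory members the 2 young PBS libraries were the extremes. Ndufa6 had 379 and 306 TPM in old MIT-001, 360 and 343 TPM in old PBS, and 521 and 281 TPM in young PBS, so that the young PBS libraries were the highest and the lowest of the 6. The same was true of Ndufa7, with 250 TPM at the lowest and 389 TPM at the highest, of Ndufa5 with 72.3 and 136 TPM, of Ndufb4 with 191 and 245 TPM, and of Ndufb5 with 170 and 239 TPM. Ndufc1, the shortest transcript of the set, ranged over 178 to 321 TPM and Ndufs6, a zinc-binding subunit, over 119 to 169 TPM, each highest in young PBS replicate 1. Ndufa13, also known as GRIM-19, had 110 and 93.5 TPM in old MIT-001, 128 and 111 TPM in old PBS, and 161 and 106 TPM in young PBS. Ndufa9, which binds NADPH beside the ubiquinone channel, had 119 and 135 TPM in old MIT-001, 148 and 154 TPM in old PBS, and 136 and 195 TPM in young PBS. The X-linked Ndufa1, at 119 to 181 TPM, and Ndufb8, at 251 to 342 TPM, were highest in old PBS replicate 1, as were Ndufa12 and Ndufb6, at 109 to 132 and 95.9 to 116 TPM.

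**Figure D2:**
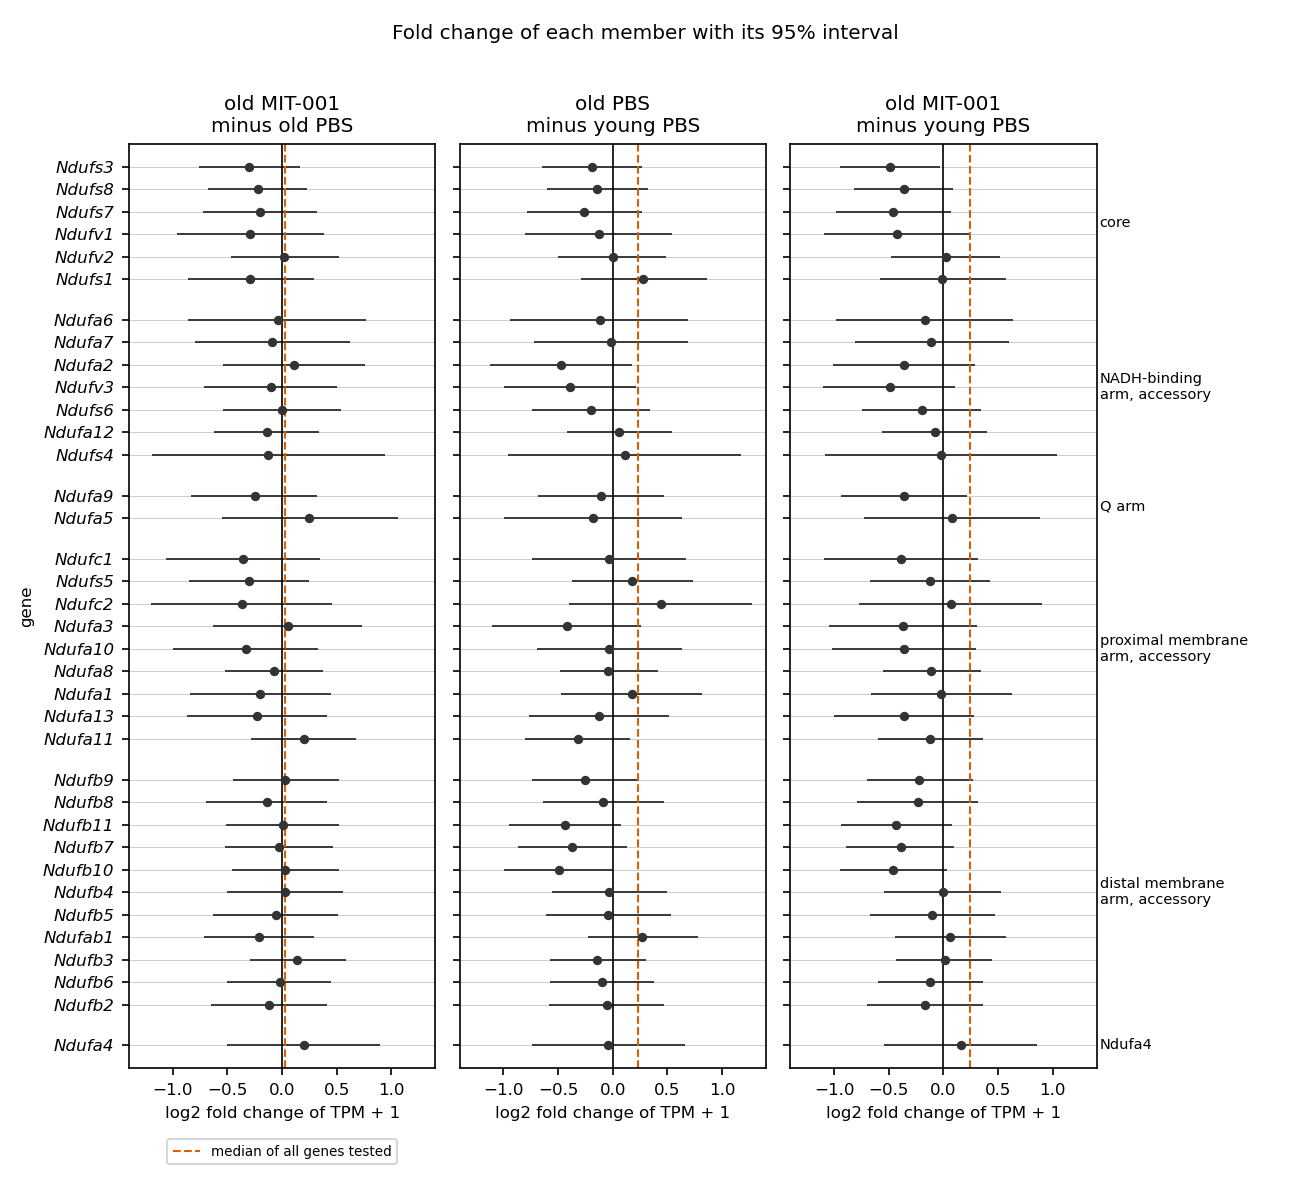
Log2 fold change of TPM + 1 for each member (points) with its 95% interval from limma (bars), for old MIT-001 minus old PBS, old PBS minus young PBS and old MIT-001 minus young PBS, with the median of all genes tested as a dashed line. Most points lie left of the dashed line in the contrasts with young PBS, and every interval includes 0 except those of Ndufb10 for old PBS minus young PBS and Ndufs3 for old MIT-001 minus young PBS.

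Old PBS against young PBS addresses ageing, as far as the labels give it. Again 0 of 36 members were called, where 0.0364% of all genes tested were (6 of 16473), and 1 member, Ndufb10, was lower at an unadjusted p below 0.05, where 3.55% of all genes were. By sign 7 members were higher and 29 lower in old PBS, with a median log2 fold change of -0.10 and a range of -0.49 to 0.44. Of all genes tested 68.1% were higher and the median was 0.23, so the members' median lay 0.33 below that of all genes. With the libraries centred on their medians the median of all genes was -0.09 and that of the members -0.42, again 0.33 lower. In 12 members (33.3%) both old PBS libraries lay below both young PBS libraries, where 11.0% of all genes did, and in 1 member (Ndufab1) they lay above, where 38.1% of all genes did. Without young PBS replicate 1 the members divided into 18 higher and 18 lower, with a median of -0.01. Without old PBS replicate 2 they divided into 14 and 22, and without young PBS replicate 2 into 6 and 30, with a median of -0.21.

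Among the members without overlap, those with the lowest fold changes in this comparison were Ndufb10 and Ndufb11 of the distal membrane arm and Ndufa2 and Ndufv3 of the NADH end. Ndufa3 of the proximal arm, which overlapped, was at -0.42 on the log2 scale. Ndufb10, a disulphide-bonded subunit of the distal arm, had 205 and 182 TPM in the old PBS libraries against 251 and 296 TPM in the young PBS libraries, with 197 and 198 TPM in old MIT-001. Its log2 fold change was -0.49 ± 0.20 (SE, limma, unadjusted p = 0.0488, Benjamini-Hochberg adjusted p = 0.273). Ndufb11, an X-linked subunit of the same arm, had 279 and 231 TPM in old PBS against 334 and 356 TPM in young PBS, with 268 and 243 TPM in old MIT-001. In both genes the 2 young PBS libraries were the highest of the 6, and the old groups overlapped each other. The same held for Ndufb7, with 236 and 196 TPM in old PBS against 267 and 289 TPM in young PBS, and for Ndufb9, with 323 and 293 TPM in old PBS against 377 and 357 TPM in young PBS.

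At the NADH end, Ndufv3, a small accessory subunit, had 164 and 126 TPM in old PBS against 187 and 191 TPM in young PBS, with 158 and 114 TPM in old MIT-001. Ndufa2, a subunit with a thioredoxin-like fold, had 204 and 177 TPM in old PBS against 327 and 211 TPM in young PBS, with 217 and 194 TPM in old MIT-001. Both were lower in old PBS without overlap, with log2 fold changes of -0.39 ± 0.25 and -0.47 ± 0.27 (SE), though for Ndufa2 young PBS replicate 2 lay close to old PBS replicate 1. Ndufab1 was higher in old PBS by 0.27 ± 0.21 (SE, log2), a sign that turned to -0.05 with median centring.

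Ndufc2 had the largest positive fold change, 0.44 ± 0.34 (SE, log2), with 308 and 281 TPM in old PBS against 306 and 154 TPM in young PBS, where only replicate 2 was low. It was called without young PBS replicate 1, the only call of a member when libraries were left out in turn, at 0.93 ± 0.15 (SE, log2, limma, Benjamini-Hochberg adjusted p = 0.0431). In that fit 948 genes were called, where the full fit called 6. Ndufs4, an accessory subunit whose loss gives a mouse model of Leigh syndrome, had 93.9 and 104 TPM in old PBS, between the 148 and 56.7 TPM of young PBS, with 97.7 and 84 TPM in old MIT-001. Its fold change could not be read in either direction, with a 95% interval of -0.96 to 1.17 on the log2 scale.

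Old MIT-001 against young PBS asks whether treated aged ovaries differed from young ones, and it shares libraries with both other comparisons. Of the members, 0 were called, where 0% of all genes tested were, and 1 (Ndufs3) was lower at an unadjusted p below 0.05, where 0.813% of all genes were. By sign 6 members were higher and 30 lower in old MIT-001, with a median log2 fold change of -0.17, where 69.3% of all genes were higher and their median was 0.24. In 13 members (36.1%) both old MIT-001 libraries lay below both young PBS libraries, where 6.56% of all genes did, and in none above, where 37.3% did. The count of members higher was 14 without young PBS replicate 1 and 2 without young PBS replicate 2. Ndufs3 had a log2 fold change of -0.49 ± 0.19 (SE, limma, unadjusted p = 0.0400, Benjamini-Hochberg adjusted p = 0.252), with all 4 libraries given above. Ndufv3 was at -0.49 ± 0.25, Ndufb10 at -0.46 ± 0.20 and Ndufs7 at -0.46 ± 0.22 (SE, log2), all without overlap. The core genes had the lowest median of the role groups, -0.39, but without young PBS replicate 2 theirs was the least low, at -0.21, and the others lay between -0.48 (NADH end) and -0.24 (ubiquinone part). Of the 7 genes at the NADH end 0 were higher, and of the 11 of the distal arm 2 were; without young PBS replicate 1 the counts were 5 and 3.

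Markers of several cell types moved with the same comparisons, while luteal markers were mixed. Between old MIT-001 and old PBS, all 9 granulosa markers were lower in old MIT-001 (2451 and 3674 TPM summed, against 7163 and 8968 TPM in old PBS), all 8 oocyte markers were lower, and all 8 surface epithelium markers were higher (635 and 668 TPM, against 167 and 161 TPM). All 6 tested oviduct and ciliated markers were higher, with Ovgp1 at 567 and 215 TPM against 20.3 and 30.5 TPM. Of the 9 luteal markers 3 were higher and 6 lower, and their sums overlapped (41390 and 40778 TPM, against 48139 and 40393 TPM). Between old PBS and young PBS, all 9 granulosa markers were higher in old PBS (young PBS had 3128 and 3005 TPM). All 7 plasma cell markers were lower, 5 without overlap, at 145 and 140 TPM in old PBS, against 1788 and 407 TPM in young PBS. Xbp1 made up most of the old PBS sums, at 125 and 116 TPM, and was nearly level in young PBS, at 121 and 128 TPM. Igkc was at 9.5 and 10.6 TPM in old PBS against 1340 and 174 TPM in young PBS. The only markers listed at 0 in any library were Lep and Ighg2c, in old PBS replicate 1. Whether cell composition had a part in the values of the complex I genes was not tested.

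The 2 young PBS libraries differed in the proportions of the complex I genes themselves. On the log2 scale, 1 member differed by more than 0.5 between the libraries of old MIT-001, 1 between those of old PBS and 13 of 36 between those of young PBS. The median difference was 0.14 in old MIT-001, 0.17 in old PBS and 0.35 in young PBS. Ndufs4 differed most, lower in replicate 2 by 1.37, followed by Ndufc2, lower by 0.99. Ndufv1, Ndufa10 and Ndufa9 went the other way, higher in replicate 2 by 0.68, 0.68 and 0.51. The 6 core genes summed to 1116 and 1249 TPM in young PBS replicates 1 and 2, while the 7 accessory genes of the NADH end summed to 1872 and 1223 TPM. The core genes made up 13.7% and 14.2% of the summed TPM of the 36 members in old MIT-001. Their share was 14.6% and 16% in old PBS, and 13.4% and 17.4% in young PBS.

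This difference moved with transcript length. The 19 members with transcripts shorter than 800 bases had a median of -0.32 (replicate 2 minus replicate 1) in young PBS, and the 17 longer members a median of -0.01. All genes tested with a length had medians of -0.56 (489 shorter genes) and -0.01 (13198 longer genes). Length also moved with the group contrasts: for old PBS minus young PBS, the medians of all genes were -0.10 for shorter and 0.25 for longer genes, and those of the members were -0.14 and -0.04. The longer members thus had a lower median than longer genes in general. For old MIT-001 minus young PBS the medians were -0.23 in the longer members and 0.25 in all longer genes. For old MIT-001 minus old PBS the medians were -0.02 in the shorter and -0.14 in the longer members, and 0.02 and 0.03 in all genes. Spearman coefficients of length with this contrast were -0.32 over the members, -0.57 over complexes II to V and 0.05 over all genes. The part of transcript length in the members' fold changes, and in the differences between their role groups, was not tested.

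**Figure D3:**
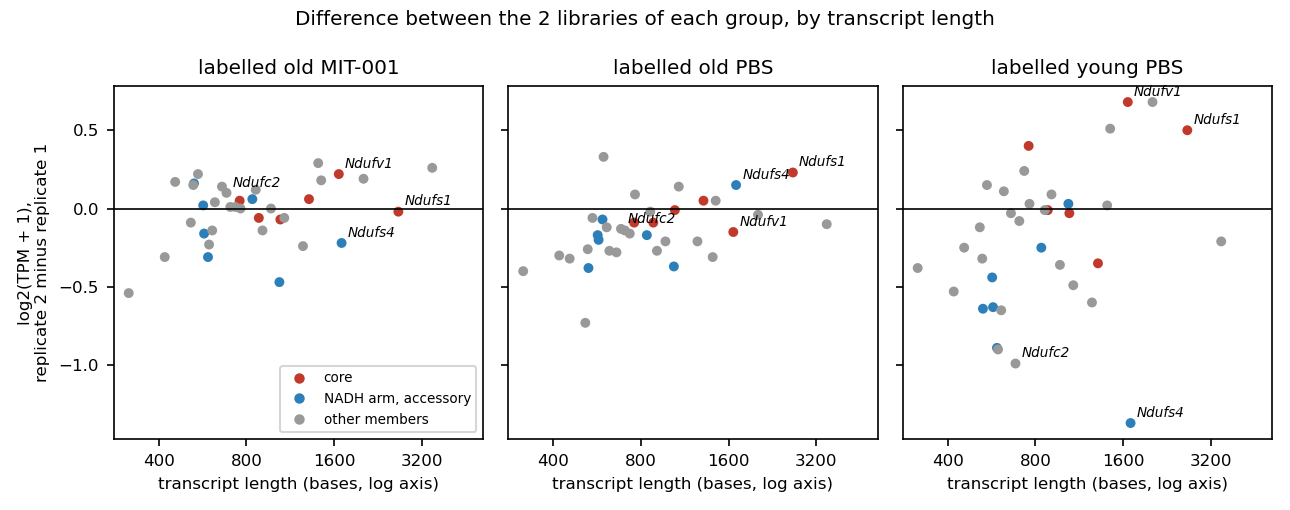
Difference in log2(TPM + 1) between the 2 libraries of each group (replicate 2 minus replicate 1) against transcript length (bases, log axis) for the 36 members, with core genes in red, accessory genes of the NADH end in blue and the others in grey. All but 1 point each lie within 0.5 of 0 in old MIT-001 and old PBS and spread from -1.37 (Ndufs4) to 0.68 (Ndufv1, Ndufa10) in young PBS.

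Across the 6 libraries the members varied less than genes in general. The median SD of log2(TPM + 1) over the 6 libraries was 0.23 for the 36 members and 0.23 for the 38 listed genes of complexes II to V, against 0.41 for all genes tested. It was 0.47 for the 20 ribosomal protein genes. The comparison was not matched for level: the median TPM in a library was 162 to 195 for the members and 12.2 to 17.4 for all genes tested. Ndufa8, a disulphide-bonded subunit, varied least, with an SD of 0.06 and 154 to 174 TPM in all 6 libraries. Ndufb3 followed with 0.08, and Ndufs4 had the highest SD at 0.45.

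Against young PBS, the transcripts of complex I that mitochondrial DNA encodes had the opposite sign to the nuclear ones, and between the old groups their ratio did not separate. The 7 mt-Nd genes, which encode the proton-pumping core of the membrane arm, summed to 14974 and 16444 TPM in old MIT-001 and to 14909 and 18758 TPM in old PBS, against 10642 and 10518 TPM in young PBS. The ratio of mitochondrial to nuclear complex I transcripts was 2.22 and 2.49 in old MIT-001, 1.98 and 2.79 in old PBS, and 1.27 and 1.46 in young PBS. All 4 libraries labelled old lay above both labelled young, and the 2 old groups overlapped. The whole mitochondrial genome did not separate old PBS from young PBS, at 4.86% and 6.47% of TPM against 4.98% and 5.51%. In old MIT-001 it took 6.87% and 6.63%. Without young PBS replicate 1 the nuclear members' median log2 fold change for old PBS against young PBS was only -0.01. On the log2 scale the ratio was 0.79 higher in old PBS than in young PBS, with means of 1.23 ± 0.35 and 0.45 ± 0.14 (SD, n = 2 each), and the smallest p of an exact permutation test is again 0.333. Between old MIT-001 and old PBS the mean log2 ratios were both 1.23, and the median log2 fold change of the 7 genes was 0.13, but -0.18 without old MIT-001 replicate 2 and -0.25 without old PBS replicate 1. All 7 genes were higher in old PBS than in young PBS (6 with median centring or without young PBS replicate 2), and 0 were called. The gene mt-Nd2 had the smallest unadjusted p, with 3636 and 4461 TPM in old PBS against 1319 and 1745 TPM in young PBS (log2 fold change 1.41 ± 0.35, SE, limma, unadjusted p = 0.00665, Benjamini-Hochberg adjusted p = 0.212).

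**Figure D4:**
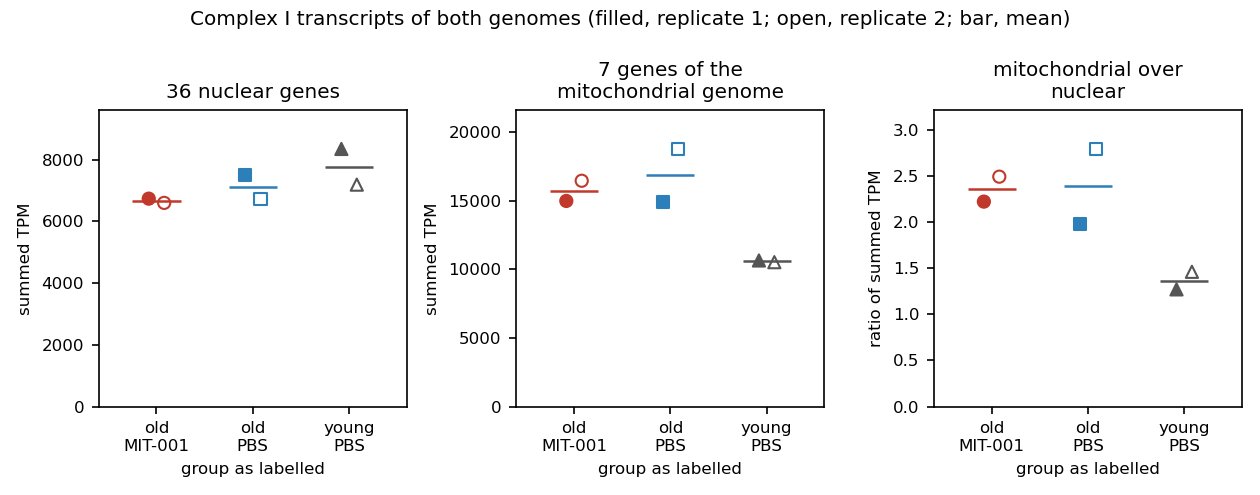
Summed TPM of the 36 nuclear genes and of the 7 genes of the mitochondrial genome, and the ratio of these sums, in each library of the groups as labelled, with bars for means. The ratio lies between 1.98 and 2.79 in the 4 libraries labelled old and at 1.27 and 1.46 in the young PBS libraries.

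Other nuclear genes of the respiratory chain had medians of the same sign as the members. The ratio of the summed TPM of the complex I genes to that of the 38 genes of complexes II to V was 0.417 and 0.414 in old MIT-001, 0.400 and 0.389 in old PBS, and 0.403 and 0.401 in young PBS. Both old MIT-001 values were the highest. The 38 genes had median log2 fold changes of -0.15 with MIT-001, -0.14 between old PBS and young PBS, and -0.24 between old MIT-001 and young PBS, beside -0.10, -0.10 and -0.17 for the members, and 0 of them were called in any comparison. With MIT-001 the median was -0.08 without old PBS replicate 1. Between old PBS and young PBS it was -0.01 without old PBS replicate 2 and also without young PBS replicate 1, -0.30 with FPKM and -0.47 with median centring. Between old MIT-001 and young PBS it was -0.40 with FPKM and -0.66 with median centring.

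The factors that build complex I had a median of the members' sign between old MIT-001 and old PBS and of the opposite sign in the contrasts with young PBS, which depended on the scaling. Of 17 listed assembly factors 16 were matched and tested, and 0 were called in any comparison. With MIT-001, 1 was higher and 15 lower than in old PBS, with a median log2 fold change of -0.22. Between old PBS and young PBS, 14 were higher, with a median of 0.41, and 9 were higher with median centring or quantile normalization, with medians of 0.09 and 0.12. Between old MIT-001 and young PBS, 12 were higher, with a median of 0.11 that became -0.04 with FPKM, -0.23 with quantile normalization and -0.30 with median centring. The difference between assembly factors and members was not tested. Ndufaf4, an assembly factor of the matrix arm, had the smallest unadjusted p of the list between old PBS and young PBS, with 9.33 and 14.4 TPM in old PBS against 7.52 and 4.98 TPM in young PBS (log2 0.82 ± 0.33, SE, limma, unadjusted p = 0.0464, Benjamini-Hochberg adjusted p = 0.271). Tmem126b, which belongs to the assembly complex of the membrane arm, had 24.1 and 27.1 TPM in old PBS against 17.6 and 16.8 TPM in young PBS, without overlap. Assembly factors were far less abundant than subunits, at 2.85 to 57.1 TPM.

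Of the enzymes that supply NADH, all 15 listed genes of pyruvate dehydrogenase and the citrate cycle were lower with MIT-001 than in old PBS (14 under quantile normalization, 13 or 14 without either old MIT-001 library or old PBS replicate 2), with a median log2 fold change of -0.25 and 0 called. Cs, citrate synthase, was lowest at -0.50, with 160 and 200 TPM in old MIT-001 against 261 and 246 TPM in old PBS. Between old PBS and young PBS, 11 of the 15 were higher, with a median of 0.21 that became -0.11 with median centring. Of 10 listed regulators of mitochondrial biogenesis 9 were tested and 0 called. Ppargc1a, the coactivator of respiratory genes, was at 2.03 and 1.48 TPM in old MIT-001, 0.201 and 0.289 TPM in old PBS and 0.39 and 0.0734 TPM in young PBS. Both old MIT-001 libraries were the highest of the 6 for this gene. Gabpa, a subunit of GABP, had 21 and 31.9 TPM in old PBS against 15.3 and 10 TPM in young PBS, without overlap, and 30.9 and 35.3 TPM in old MIT-001.

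Some members have close copies whose reads may be divided between genes. Ndufb4b and Ndufb4c, copies of Ndufb4, were listed at 11 to 14.6 and 11.8 to 16.3 TPM, beside 191 to 245 TPM for Ndufb4. The pseudogene Ndufs5-ps was listed at 7.45 to 14.7 TPM, beside 216 to 307 TPM for Ndufs5, and those of Ndufab1 and Ndufs6 stayed at or below 0.337 TPM. Ndufa4l2, a paralog of Ndufa4 known as a target of hypoxia signalling, was at 19.4 to 38 TPM.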

How the data were processed

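RNA was extracted from ovaries with TRIzol and made into libraries with a SMARTer mRNA kit, per the labels' protocols. The submitters' processing notes name Trimmomatic, HISAT2, StringTie and the build mm10; tool versions, the gene annotation and the strand setting were not given in the sources used here. TPM was taken as deposited and is, per the file headers, an abundance scaled for transcript length and library. FPKM was deposited beside it, scaled for length and fragment number, and served as an alternative. The coverage signal, also deposited, gives the average depth of reads on a gene and, divided by FPKM, an estimate of the depth of a library. The files used hold no counts of reads, so the spread between libraries is the only measure of precision.

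Symbols were matched by NCBI Gene ID to a RefSeq table of GRCm38.p6: 45683 or 45684 of 45781 or 45782 rows matched and 98 did not (0.0145% to 0.0301% of TPM, left out). Values of 1 symbol were summed. The 16473 genes that reached a TPM of 1 in 2 or more libraries were analysed on the log2(TPM + 1) scale, which is also the scale of all fold changes. The model was limma 3.58.1 in R 4.3.3, with 1 mean per group, all 6 libraries and an intensity trend, and had 3 residual and 3.12 prior degrees of freedom. P-values are two-sided and adjusted by Benjamini-Hochberg over all these genes. The procedure was run on simulated data with independent noise and added changes larger than any fold change of a member. That run therefore does not bear on differences of the members' size. Groups came from the labels alone. Transcript length was the median of GENCODE M21 transcripts paired with a curated RefSeq mRNA, and was found for 13687 of the 16473 genes and all members. Without a stated strand setting, reads of overlapping antisense genes cannot be separated.

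The members and lists were chosen with earlier results of these data known, as were the tests. Values in every library are given for the core subunits, for the 3 highest and 3 lowest members, and, per comparison, for up to 4 members with the largest fold change in each direction among those without overlap between groups; other members were chosen after their values were seen. The alternatives changed the pseudocount (0.1), the filter (none, or a TPM of 5), the scale (FPKM, median centring, quantile normalization, the mitochondrial genome removed), the libraries fitted (the 4 compared, or each left out in turn) or added the replicate number as a block.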

Additional observations from a re-analysis of the deposited data

How the results depend on the processing

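The count of members called stayed at 0 under every alternative run except 1, the old PBS against young PBS comparison without young PBS replicate 1, where it was 1 (Ndufc2), for a range of 0 to 1 over libraries left out. Counts over all genes were less stable. For old MIT-001 against old PBS 3 genes were called, 0 without a filter, 1 with FPKM, 1 with median centring, 356 with the 4 compared libraries only, and 0 to 372 with a library left out. For old PBS against young PBS 6 were called, 1 without a filter, 15 with median centring, 17 with quantile normalization, 0 with the 4 libraries only, and 0 to 948 with a library left out. For old MIT-001 against young PBS the limma count over all genes was 0 under every alternative run, with 2820 genes higher and 134 lower at an unadjusted p below 0.05 in the fit as reported.

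The number of members higher with MIT-001 than in old PBS was 11, 5 with median centring, and 7 to 18 with a library left out, and their median log2 fold change of -0.10 was -0.19 with median centring and -0.20 to 0.00 with a library left out. For old PBS against young PBS 7 were higher, 1 with median centring and 6 to 18 with a library left out, and the median of -0.10 was -0.25 with FPKM, -0.42 with median centring and -0.21 to -0.01 with a library left out. For old MIT-001 against young PBS 6 were higher, 1 with FPKM, 0 with median centring, 10 rescaled without the mitochondrial genome and 2 to 14 with a library left out, and the median of -0.17 was -0.32 with FPKM, -0.58 with median centring and -0.29 to -0.08 with a library left out. Where a fit left 1 library in a group, that library is assumed to vary like the others. The cause of these differences was not tested, beyond the fewer libraries of some fits.

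The counts above show many signs turning with the scaling or the libraries. Of the members whose log2 fold changes were recomputed singly (the 6 core subunits and those the naming rule gives for a comparison), 4 changed sign. Ndufv2 with MIT-001 against old PBS was at -0.07 with median centring and 0.00 to 0.05 with a library left out. For old PBS against young PBS it was at 0.00 without the mitochondrial genome and -0.18 to 0.17 with a library left out, and between old MIT-001 and young PBS at -0.13 with FPKM, -0.39 with median centring and -0.15 to 0.19 with a library left out. Ndufs1 was at -0.04 with median centring for old PBS against young PBS, and between old MIT-001 and young PBS at 0.02 without the mitochondrial genome and -0.26 to 0.25 with a library left out. For old PBS against young PBS, Ndufab1 was at -0.05 with median centring and Ndufv1 at -0.47 to 0.21 with a library left out.

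Libraries with the same replicate number did not deviate together in all pairs (correlations of 0.239, 0.00656 and 0.175), so the numbers are not taken to pair them. With the replicate number as a block, 0 members were called in any comparison, and over all genes 0 were called for old MIT-001 against old PBS and 1 for old PBS against young PBS.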
